A study of Mus musculus with 16 samples.

Results

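The endothelial genes examined here were Cldn5, Pecam1, Cdh5, Kdr, Flt1, Tek, Tie1, Eng and Nostrin, 9 of the 40378 gene symbols to which transcripts of the CaptureSeq assembly could be assigned. They were chosen by name, as genes that endothelial cells use, by a rule that applies no threshold to their values. A transcript counted for a gene when its largest exonic overlap on the same strand with GENCODE M21 (GRCm38) genes was with that gene, and the values of all its transcripts were summed in each library. All 9 members were found, each as a single gene model that held no other symbol, with 48 transcripts in all. CaptureSeq uses oligonucleotide probes to pull selected cDNAs from a library before sequencing. From adult C57BL/6J mice, 8 tissues were each captured with a splice junction design and with a lncRNA design, giving 1 library for each tissue and design (16 libraries). The brain group held whole brain, cerebellum, cortex and olfactory bulb, whose RNA was extracted with TRIzol and amplified for 16 cycles after capture. The nonbrain group held heart, kidney, liver and a tissue labelled testes, extracted with RNeasy from 2 organ pieces of the same mouse and amplified for 17 cycles. The groups were also pooled for hybridization apart from each other, so tissue group, extraction, pool and cycle number cannot be told apart. How many mice gave the brain tissues was not stated in the sources used here.

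Endothelial cells line all blood vessels. Pecam1 and Cdh5 (VE-cadherin) hold neighboring endothelial cells together, Kdr and Flt1 are receptors for vascular endothelial growth factor (VEGF), and Tek binds angiopoietins while Tie1 is its partner receptor. Eng is a coreceptor for ligands of the TGF-beta family, and Nostrin binds endothelial nitric oxide synthase and controls where it lies in the cell. Cldn5 is the claudin that dominates the tight junctions of brain endothelium, where it seals the blood-brain barrier. Vessels of liver, kidney and endocrine organs are, in contrast, often fenestrated or discontinuous.

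Libraries held 14309222 to 43889288 fragments in splice junction CaptureSeq and 8930235 to 21113104 in lncRNA CaptureSeq, spike-in controls included. Values are Cuffnorm-normalized estimated fragments, here called normalized fragments. All 6 neuron markers in the files were highest in a brain tissue, and 5 of 6 heart muscle, 6 of 7 kidney and 5 of 5 hepatocyte markers were highest in their labelled organ. Some organ markers also had lower values in the other nonbrain libraries. The kidney marker Umod had 76182 normalized fragments in kidney, 1474 in heart, 1637 in liver and 687 in the tissue labelled testes. It was listed at 0 in every brain library (splice junction CaptureSeq). The source of these values, and any part of it in the values of the members, were not tested. The libraries labelled testes went against their label. None of the 4 germ cell markers with at least 10 fragments in any splice junction library was highest there, whereas 7 of 8 keratinocyte markers were, and these libraries are called by their label only. Since the 4 tissues of a group are different tissues and whole brain contains the other 3, every p-value below measures the spread between tissues rather than between mice.

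The sequences shown are those on which the comparisons of transcripts and promoters turn. Pecam1 varied in its cytoplasmic tail, which is encoded by short exons that can be skipped. The following 3 cassette exons, all within the coding sequence of the full-length transcript (minus strand, GRCm38), are shown in capitals because each was present in some assembled transcripts and absent from others.
54 nt exon, chr11:106681032-106681085: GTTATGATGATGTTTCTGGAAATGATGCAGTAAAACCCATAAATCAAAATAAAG
57 nt exon, chr11:106671742-106671798: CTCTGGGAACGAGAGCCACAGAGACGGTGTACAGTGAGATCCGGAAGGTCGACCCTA
23 nt exon, chr11:106662002-106662024: ATCTCATGGAAAACAGATACTCT
The 57 nt exon encodes a part of the tail with a tyrosine-based inhibitory motif.

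Eng had a pair of alternative acceptors at its second exon, which starts at position 32657516 or 32657519 of chromosome 2 (plus strand, GRCm38). The joined end of the first and start of the second exon is shown for both, with the 3 bases that only the upstream acceptor adds in capitals.
Eng, upstream acceptor: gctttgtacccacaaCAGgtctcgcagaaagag
Eng, downstream acceptor: gctttgtacccacaagtctcgcagaaagag
Flt1 had a short transcript, annotated as noncoding, that leaves the main chain of exons for a last exon of 241 nt of its own (chr5:147654269-147654509, minus strand). The end of the exon before it is in lower case and the first 60 bases of this last exon are in capitals.
Flt1, short transcript: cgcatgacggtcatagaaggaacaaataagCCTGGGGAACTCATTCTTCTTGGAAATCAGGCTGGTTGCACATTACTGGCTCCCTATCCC

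Transcription factors of the ETS family, which bind GGAA cores, are known regulators of endothelial genes. The 250 bases before the RefSeq start (GRCm38.p6) were given for 7 members, and 4 of these (Flt1, Tie1, Eng and Nostrin) held AGGAAG on either strand. Among 32851 mouse promoters of the same length, 29.5% held it. Cldn5, Kdr and Tek held none, which says only that these letters were not in this window. Neither assembled transcript of Nostrin began at its RefSeq start, and part of Kdr began upstream of its own, as described below. The windows of Nostrin and Kdr thus do not cover all starts seen in these libraries. Promoters of Cldn5, and of Tie1 and Eng, the pair of members that passed the test below, are shown with AGGAAG or its complement CTTCCT in capitals.
Cldn5, chr16:18776597-18776846, plus strand: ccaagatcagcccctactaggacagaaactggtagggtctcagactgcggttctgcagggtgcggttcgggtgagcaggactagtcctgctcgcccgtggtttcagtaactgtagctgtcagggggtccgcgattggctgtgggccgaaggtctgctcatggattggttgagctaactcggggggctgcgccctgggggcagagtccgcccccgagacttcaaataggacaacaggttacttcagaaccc
Tie1, chr4:118489850-118490099, minus strand: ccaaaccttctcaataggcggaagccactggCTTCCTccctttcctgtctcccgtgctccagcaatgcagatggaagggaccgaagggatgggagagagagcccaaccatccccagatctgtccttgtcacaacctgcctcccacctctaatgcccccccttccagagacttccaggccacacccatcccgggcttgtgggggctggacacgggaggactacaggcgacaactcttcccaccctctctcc
Eng, chr2:32646345-32646594, plus strand: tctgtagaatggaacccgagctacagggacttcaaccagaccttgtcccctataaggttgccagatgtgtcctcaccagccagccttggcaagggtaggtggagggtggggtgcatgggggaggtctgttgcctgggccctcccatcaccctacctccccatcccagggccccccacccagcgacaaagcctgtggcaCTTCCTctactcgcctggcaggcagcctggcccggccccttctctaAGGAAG

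The designs differed in what they targeted. The splice junction probes covered sequence beside RefSeq splice sites, after the regions most abundant in brain had been removed by the authors, and the lncRNA design trimmed single-exon targets away from coding exons. Levels of different genes within a design therefore cannot be compared, and each gene is compared with itself across tissues. Cldn5 (chromosome 16, 18776847 to 18778262) has a single exon and so no splice junction of its own. Its position was not compared with the probes of either design. The other 8 members have 12 to 30 exons. Over the 8 splice junction libraries the members gave 140 (Cldn5) to 79101 (Flt1) fragments, and over the 8 lncRNA libraries 24 (Nostrin) to 463 (Flt1).

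The 8 members other than Cldn5 were higher in splice junction than in lncRNA CaptureSeq. With limma on log2(normalized fragments + 1) and a term for the tissue, Nostrin rose by 7.81 ± 0.51 (SE, 8 pairs of libraries; log2 scale, adjusted p = 1.99e-07), Kdr by 6.07 ± 0.28 (adjusted p = 1.96e-08), Flt1 by 5.89 ± 0.18 (adjusted p = 2.11e-09) and Tek by 5.81 ± 0.21 (adjusted p = 4.08e-09). Pecam1, Tie1, Eng and Cdh5 rose by 4.45 to 5.66. All 8 rose in 8 of 8 tissues. Over all 30778 features tested, 34.6% were called higher in splice junction CaptureSeq, and over 14692 spliced protein-coding symbols 66.4% were, with a median difference of 2.83.

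Cldn5 had a log2 difference of -0.70 ± 0.27 between splice junction and lncRNA CaptureSeq (adjusted p = 0.0313) and was higher with the splice junction design in 1 of 8 tissues. This call was lost at a larger pseudocount (adjusted p = 0.0682), without the tissue term (adjusted p = 0.12), per 1000000 fragments outside the spike-in controls (-0.04, adjusted p = 0.91) and without kidney, olfactory bulb or the libraries labelled testes (adjusted p of 0.0628 to 0.0808), and quantile normalization turned it to 2.54. Among 143 single exon protein-coding symbols the median difference was -1.10, and 74.8% of them were called lower with the splice junction design. Nostrin was listed at 0 in the lncRNA libraries of heart and kidney, where 0 fragments allow up to 14.3 and 5.07 normalized fragments. In the test of whether the difference between designs itself differed between brain and nonbrain tissues, no member had an unadjusted p under 0.05 (limma, smallest adjusted p = 0.21, for Nostrin, at -1.72).

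**Figure D1:**
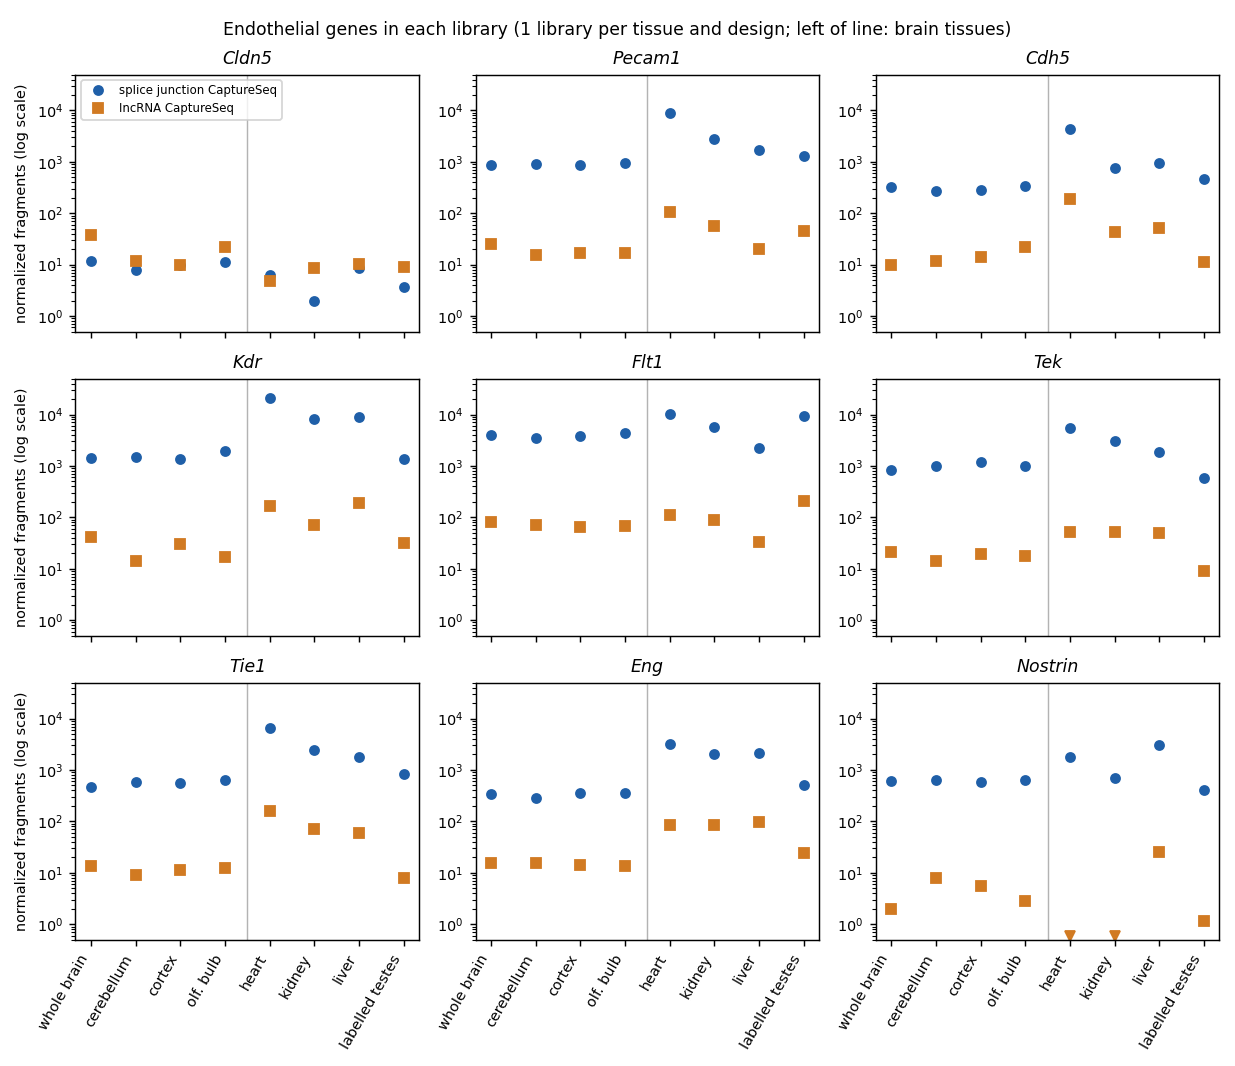
Normalized fragments of the 9 members (log scale) in each tissue, with 1 point per library, circles for splice junction and squares for lncRNA CaptureSeq, brain tissues left of the grey line. Triangles at the base mark the 2 libraries listed at 0. The brain points of Pecam1 lie between 853 and 947 in splice junction CaptureSeq and the heart point at 8920, whereas the points of both designs mix for Cldn5.

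The main question was how the tight junction gene and the general vascular genes divide between brain and organs. Tie1 and Eng were lower in brain, and the other members tested did not pass the threshold. Tie1 had 475, 574, 570.5 and 650.3 normalized fragments in whole brain, cerebellum, cortex and olfactory bulb, against 6633, 2433, 1804 and 841 in heart, kidney, liver and the library labelled testes (splice junction CaptureSeq). The groups did not overlap, heart being highest. With limma, Tie1 fell by 1.98 on the log2 scale (SE 0.59, n = 4 each, adjusted p = 0.0314).

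Eng had 337, 279.9, 349 and 364 normalized fragments in whole brain, cerebellum, cortex and olfactory bulb, against 3255, 2086, 2105 and 510.2 in heart, kidney, liver and the library labelled testes. Again no brain library reached a nonbrain library, and the library labelled testes was lowest among the nonbrain ones. Eng fell by 2.31 (SE 0.57, n = 4 each, limma adjusted p = 0.0143). It also fell in lncRNA CaptureSeq, by 2.06 (SE 0.57, adjusted p = 0.0247), with 13.8 to 15.8 normalized fragments in brain against 23.9 to 97.8 in nonbrain tissues.

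Tek, the angiopoietin receptor, had 837, 1003, 1211 and 989 normalized fragments in whole brain, cerebellum, cortex and olfactory bulb, against 5544, 3098, 1878 and 577 in heart, kidney, liver and the library labelled testes. The library labelled testes lay below all brain libraries. The difference of -1.05 ± 0.65 did not pass the test (limma adjusted p = 0.23), whereas without that library it was -1.67 ± 0.43 (adjusted p = 0.022).

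The general junction genes Pecam1 and Cdh5 were highest in heart, and no brain library reached a nonbrain library. Pecam1 had 883, 895, 853 and 947 normalized fragments in whole brain, cerebellum, cortex and olfactory bulb, against 8920.2, 2808, 1704 and 1307 in heart, kidney, liver and the library labelled testes. Its brain values spanned 1.11-fold and its nonbrain values 6.82-fold. The groups did not overlap, but the log2 difference of -1.61 ± 0.59 did not pass the test (limma adjusted p = 0.0604).

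Cdh5 had 321, 277, 285 and 340.1 normalized fragments in whole brain, cerebellum, cortex and olfactory bulb, against 4440.1, 754, 962 and 461 in heart, kidney, liver and the library labelled testes. Heart stood 13.1-fold above the highest brain library. The difference was -1.85 ± 0.66 (limma adjusted p = 0.056), and the groups did not overlap.

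The VEGF receptors divided the tissues in different ways. Kdr had 1436, 1464, 1342 and 1912 normalized fragments in whole brain, cerebellum, cortex and olfactory bulb, against 21312, 8101, 9057 and 1393 in heart, kidney, liver and the library labelled testes. The library labelled testes lay within the range of the brain libraries, and the difference was -2.16 ± 0.76 (limma adjusted p = 0.0536). Without that library it was -2.93 ± 0.43 (adjusted p = 0.00243). Flt1, which binds VEGF with high affinity but signals weakly, had 3978, 3544, 3898 and 4337 normalized fragments in the same brain tissues, against 10214.7, 5645, 2197 and 9373 in heart, kidney, liver and the library labelled testes. Liver was the lowest of the 8 tissues for Flt1 and the second highest for Kdr. The difference for Flt1 was -0.58 ± 0.51 (limma adjusted p = 0.39).

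Nostrin had 611, 650.2, 585 and 641 normalized fragments in whole brain, cerebellum, cortex and olfactory bulb, against 1758, 713, 3099 and 401 in heart, kidney, liver and the library labelled testes. It was the only member with its highest splice junction value in liver. Its difference was -0.85 ± 0.62 (limma adjusted p = 0.31).

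In total 2 of the 8 members tested were called, both lower in brain, against 16.2% of all 17598 features called lower at an adjusted p under 0.05. For 4 of the 8 (Pecam1, Cdh5, Tie1 and Eng) every brain library lay below every nonbrain library, as it did for 19.4% of all features. The median log2 difference of the 8 was -1.73, against 0.11 over all features. Of the 8, 5 had an unadjusted p under 0.05, against 48.6% of all features in either direction. In lncRNA CaptureSeq 8 members were tested and 1 was called lower (Eng), against 5.23% of all features.

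The library labelled testes and the scaling moved these calls. Without that library 6 members were called lower (Pecam1, Cdh5, Kdr, Tek, Tie1 and Eng), without heart 4, and without kidney or any 1 of the brain libraries 1. Scaled to 1000000 fragments outside the spike-in controls, the median over all features moved to 1.2 and no member was called. Flt1 (0.46) and Nostrin (0.19) then lay above 0, as Flt1 did after quantile normalization (0.16). Relative to the median of all features, the members moved little on the scale of 1000000 fragments and more after quantile normalization. Eng lay at -2.42 relative to that median as deposited at -2.47 per 1000000 fragments and at -2.04 after quantile normalization, Kdr at -2.28, -2.33 and -1.41, and Flt1 at -0.69, -0.74 and 0.21, in the same order. In bulk tissue, fewer endothelial cells and less of an RNA in each cell cannot be told apart.

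**Figure D2:**
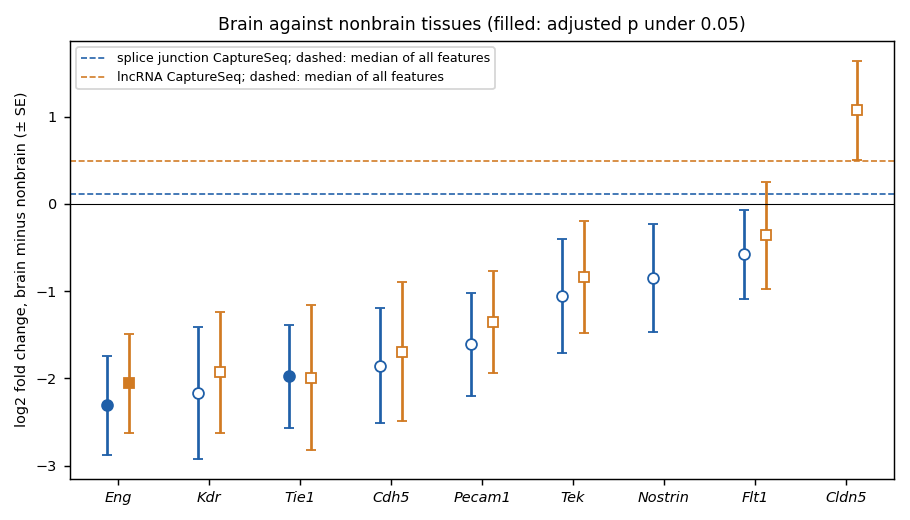
Log2 fold change of each member, brain minus nonbrain (limma, bars ± SE, 4 tissues in each group), circles for splice junction and squares for lncRNA CaptureSeq, filled where the adjusted p was under 0.05, with dashed lines at the median of all features. Tie1 and Eng are filled in splice junction CaptureSeq and Eng in lncRNA CaptureSeq, and Cldn5 (lncRNA CaptureSeq, 1.07) is the only point above 0.

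Cldn5 did not follow the other members. It had 11.9, 8.05, 9.67 and 11.3 normalized fragments in whole brain, cerebellum, cortex and olfactory bulb, against 6.42, 2.01, 8.70 and 3.73 in heart, kidney, liver and the library labelled testes, from 41, 21, 26 and 28 fragments against 4, 3, 10 and 7. Its mean was below the minimum of 10, and it was left out of the test. Without that filter the difference was 0.98 ± 0.38 (limma, unadjusted p = 0.0342, adjusted p = 0.11). Liver lay above cerebellum, so the groups overlapped on this scale. Per 1000000 fragments outside the spike-in controls, Cldn5 had 0.765 to 1.24 fragments in brain tissues and 0.105 to 0.312 in nonbrain tissues, which did not overlap. That scale moved features in general toward brain, with a median log2 difference of 1.2 and 7269 of 18361 features called higher there. The share of all features that did not overlap on it was not counted. In lncRNA CaptureSeq it had 37.2, 11.8, 9.82 and 22.1 normalized fragments in the brain tissues, against 4.77, 8.45, 10.3 and 9.12 in heart, kidney, liver and the library labelled testes, a difference of 1.07 ± 0.57 (limma adjusted p = 0.19).

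The ratio of Cldn5 to Pecam1 fragments in the same library does not depend on how libraries were scaled. The log2 ratios tested below depend on it through their pseudocount. In splice junction CaptureSeq there were 13.4, 9.0, 11.3 and 11.97 fragments of Cldn5 per 1000 of Pecam1 in whole brain, cerebellum, cortex and olfactory bulb, against 0.719, 0.714, 5.10 and 2.85 in heart, kidney, liver and the library labelled testes. All brain ratios exceeded all nonbrain ratios. The exact binomial 95% limits, which cover counting error only, were 5.56 to 13.8 for cerebellum, the lowest brain tissue. For liver, the highest nonbrain tissue, they were 2.44 to 9.41, so the limits of these neighbors in the order overlapped. The upper limit of the library labelled testes, 5.89, also passed the lower limit of cerebellum. Overlap of limits does not by itself show that ratios agree within counting error, and single libraries were not tested against each other. Heart reached at most 1.84 and kidney 2.09, below the lower limit of every brain tissue.

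On the log2 scale (pseudocount 1) the ratio averaged -6.33 ± 0.22 in brain and -8.92 ± 1.34 in nonbrain tissues (SD, n = 4 each), a difference of 2.59 (two-sided p = 0.0286 by exact permutation, which 4 against 4 tissues cannot go below). Leaving out any 1 of the brain tissues gave differences of 2.51 to 2.69 with p = 0.0571, and leaving out any 1 of the nonbrain tissues 2.15 to 3.07 with p = 0.0286 (exact permutation test). The lncRNA libraries gave 2.43 with the same complete separation (p = 0.0286, exact permutation test), from 7 to 19 fragments of Cldn5 in brain and 1 to 8 in nonbrain libraries. With the sum of the other 8 members in place of Pecam1 the difference was 2.54.

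How this difference divides between the genes depended on the scale. On log2 values without a pseudocount, Cldn5 was 1.16 higher in brain and Pecam1 differed by -1.61 as deposited, whereas per 1000000 fragments outside the spike-in controls Cldn5 was 2.2 higher and Pecam1 differed by -0.57. Among the 17597 other features that passed the filter, the ratio to Pecam1 was higher in every brain than in every nonbrain library for 41.5%, its median difference was 1.73, and 32.1% had a larger difference than Cldn5. The separation of the ratio to Pecam1 was thus not particular to Cldn5 among all features.

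**Figure D3:**
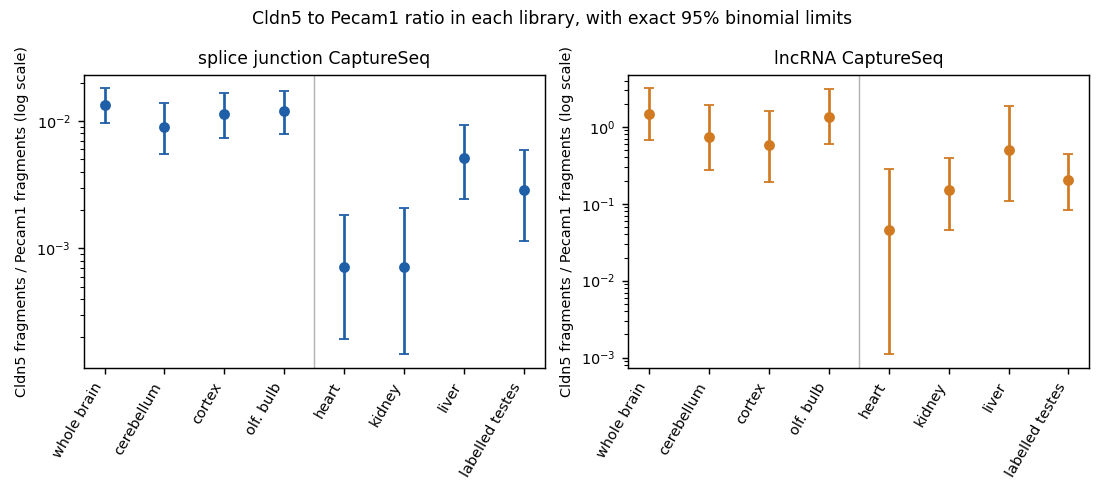
Fragments of Cldn5 per fragment of Pecam1 (log scale) in each library, with exact 95% binomial limits, splice junction CaptureSeq on the left and lncRNA CaptureSeq on the right, brain tissues left of the grey line in each. In both designs the 4 brain points lie above the 4 nonbrain points, and in splice junction CaptureSeq the limits of liver overlap those of cerebellum, cortex and olfactory bulb but not of whole brain. In lncRNA CaptureSeq the limits of liver overlap those of every brain tissue, and those of every nonbrain tissue overlap those of cerebellum and cortex.

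Receptor pairs were compared as descriptions, without a test, and were chosen after their values were seen. The ratio of Flt1 to Kdr was 2.77, 2.42, 2.90 and 2.27 in whole brain, cerebellum, cortex and olfactory bulb, against 0.479, 0.697, 0.243 and 6.73 in heart, kidney, liver and the library labelled testes (splice junction CaptureSeq). Heart, kidney and liver lay below all brain tissues and the library labelled testes above them. In lncRNA CaptureSeq the same ratio was 2.00 to 4.82 in brain tissues, against 0.657, 1.24, 0.173 and 6.61 in heart, kidney, liver and the library labelled testes. These positions relative to the brain tissues were the same in both designs, which were applied to the same tissues and are not independent.

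The ratio of Tie1 to Tek was 0.471 to 0.657 in brain tissues and 0.785 to 1.46 in nonbrain tissues in splice junction CaptureSeq, and 0.571 to 0.692 in brain tissues and 0.875 to 3.0 in nonbrain tissues in lncRNA CaptureSeq. The groups overlapped in neither design, but how often other pairs of genes separate in this way was not counted. In lncRNA CaptureSeq the brain ratios rest on 7 to 9 fragments of Tie1 and 11 to 14 of Tek. The lowest nonbrain ratio there, that of the library labelled testes, rests on 7 and 8. Because probes capture each gene to a different degree, these ratios say nothing of which receptor was more abundant.

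**Figure D4:**
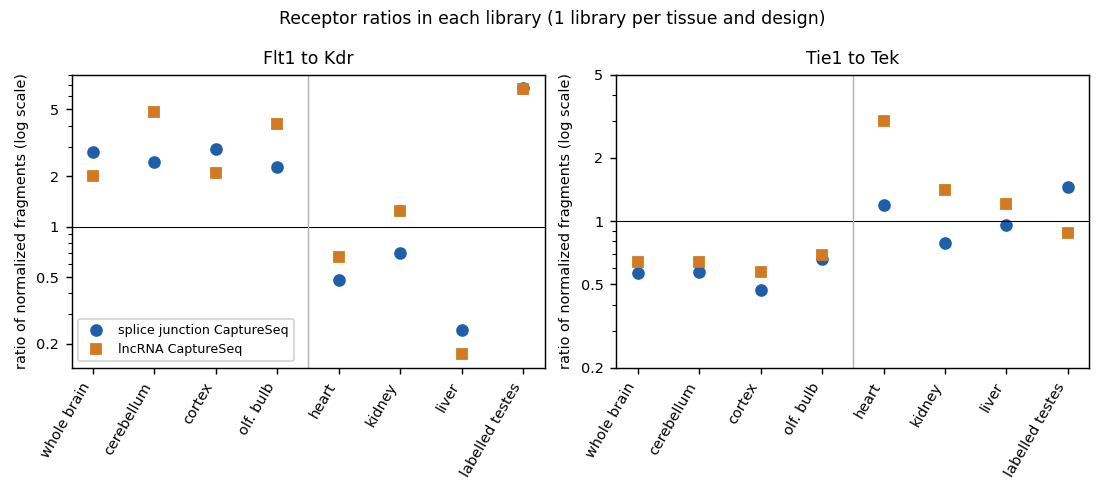
Ratio of normalized fragments of Flt1 to Kdr (left) and of Tie1 to Tek (right) in each tissue (log scale), circles for splice junction and squares for lncRNA CaptureSeq, brain tissues left of the grey line. The Flt1 to Kdr ratio of the library labelled testes (6.73 in splice junction CaptureSeq) is above and that of liver (0.243) below all brain points, and the Tie1 to Tek ratios of brain tissues all lie below 0.7.

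Most general members resembled Pecam1 across tissues, Flt1 and Nostrin less so. Over the 8 splice junction libraries the log2 values of Pecam1 had a Pearson r of 0.98 with Tie1, 0.97 with Cdh5, 0.91 with Kdr, 0.89 with Eng and with Tek, 0.57 with Flt1, 0.55 with Nostrin and -0.46 with Cldn5. Among 9871 protein-coding symbols with a mean of at least 100 normalized fragments, the most like Pecam1 were Asb15 (r = 0.998), Tefm (0.994), Trim63 (0.992), Taco1 (0.988) and Ndufs1 (0.988). All of these lay above every member, and how many symbols resembled Pecam1 as closely as the members did was not counted. Trim63 is a ubiquitin ligase of striated muscle, and Ndufs1 is a subunit of mitochondrial complex I. The most like Cldn5 were Psd3 (0.97), Zfp9 (0.97), Plxnc1 (0.96), Fam198a (0.96) and Tnfrsf19 (0.94). With 8 libraries and counts as low as those of Cldn5, these values describe the libraries only.

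The transcripts of the members differed between tissues in the splice junction libraries, where each member other than Cldn5 had at least 723 fragments. The authors' software divided the fragments of a gene among its transcripts, and shares below are percentages of these estimates. Of the 48 transcripts, 21 had at least 1 junction that GENCODE M21 lacks. Among 24 transcripts of 8 members with a share of at least 5% in any splice junction library, 5 had shares that did not overlap between brain and nonbrain tissues, against 27% of 18501 transcripts of 5152 protein-coding genes with at least 100 normalized fragments in every library. The members' count is thus not above the background.

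Kdr had the widest split. A transcript with a first exon of 49 nt (chr5:75979056-75979104, minus strand), 646 nt beyond the annotated start, took 33.15%, 35.6%, 29.4% and 34.3% of Kdr in whole brain, cerebellum, cortex and olfactory bulb, against 64.2% in heart, 69.3% in kidney, 72.8% in the library labelled testes and a share between those of kidney and that library in liver. The transcripts that begin with the annotated exon took 66.9% ± 2.70 in brain and 30.9% ± 3.69 in nonbrain tissues (SD, n = 4 each). The lncRNA libraries held 11 to 75 fragments of Kdr and gave shares of the upstream exon from near 0% to 99.98% in brain and near 0% to 45.6% in nonbrain tissues. The annotated full-length transcript of Kdr took 60.9% to 67.6% in brain and 25.03% to 33.7% in nonbrain splice junction libraries, but 0.00572% to 18.0% in brain and 35.8% to 99.9% in nonbrain lncRNA libraries, the opposite order, so the split of Kdr was not seen in lncRNA CaptureSeq.

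Pecam1 with the 54 nt exon took 80.2%, 84.7%, 84.5% and 81.3% in whole brain, cerebellum, cortex and olfactory bulb, against 74.1%, 64.5%, 58.5% and 72.5% in heart, kidney, liver and the library labelled testes. The 57 nt exon was held by 45.1% to 52.9% in brain and 54.5% to 59.8% in nonbrain tissues, and the 23 nt exon by 46.4% to 57.2% and 49.1% to 55.9%. The 54 nt and 57 nt exons thus did not overlap between groups, the latter by a narrow margin, and the 23 nt exon did. How often shares of exons separate over all genes was not counted. In lncRNA CaptureSeq, from 8 to 39 fragments of Pecam1, each of these exons overlapped between groups. The 54 nt exon took 51.7% to 100% in brain and 59.2% to 100% in nonbrain tissues there.

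The short transcript of Flt1, whose junction is shown above, took 0.234% to 1.97% of Flt1 in brain tissues, against 2.05%, 1.64%, 0.456% and 19.8% in heart, kidney, liver and the library labelled testes. In that library it came to 3481 estimated fragments of 17580. In lncRNA CaptureSeq the short transcript took at most 11.7% in brain tissues, 51.9% in liver and 8.83% in the library labelled testes. A last exon of 4375 nt (chr5:147635159-147639533), which runs on from an exon of the full-length transcript and ends the coding sequence before the membrane-spanning part of the receptor, was in 0.145% to 0.467% in brain and 0.205% to 0.824% in nonbrain splice junction libraries, but in 28.9% to 40.4% in brain and 12.03% to 66.9% in nonbrain lncRNA libraries, which held 13 to 185 fragments of Flt1. Shares of this long last exon thus differed between designs far more than between tissues.

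Cdh5 had a transcript with an extra exon of 40 nt in its first intron (chr8:104111475-104111514, plus strand), which took 24.1% in kidney (272 of 1128 fragments) and 8.35% in liver (92.4 of 1106) and at most 0.0134% in the other 6 splice junction libraries. In lncRNA CaptureSeq, from 5 to 39 fragments of Cdh5, it took at most 1.29% in any tissue. Kidney had 0.0422% and liver 0.00335% there, so the pattern was not seen in that design. Nostrin used a first exon 1851 nt upstream of the annotated start in 77.3% to 92.1% in brain and 78.6% to 88.5% in nonbrain tissues, which did not separate them.

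The upstream acceptor of Eng, with the 3 additional bases shown above, took 35.9%, 1.95%, 94.1% and 3.94% in whole brain, cerebellum, cortex and olfactory bulb, against 6.66%, 6.78%, 0.139% and 93.9% in heart, kidney, liver and the library labelled testes. Values near 0% and near 100% occurred within both groups. In lncRNA CaptureSeq, from 8 to 51 fragments of Eng, it took 52.8%, 0.00834%, 91.7% and 98.6% in the same brain tissues. Heart, kidney, liver and the library labelled testes had 99.3%, 37.3%, 91.6% and 87.6% there. The shares of olfactory bulb, heart and liver thus differed widely between designs, so these estimates do not establish a difference between tissues. The annotated full-length chain of Tek took at least 97.1% and that of Tie1 at least 79.7% in every splice junction library.

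**Figure D5:**
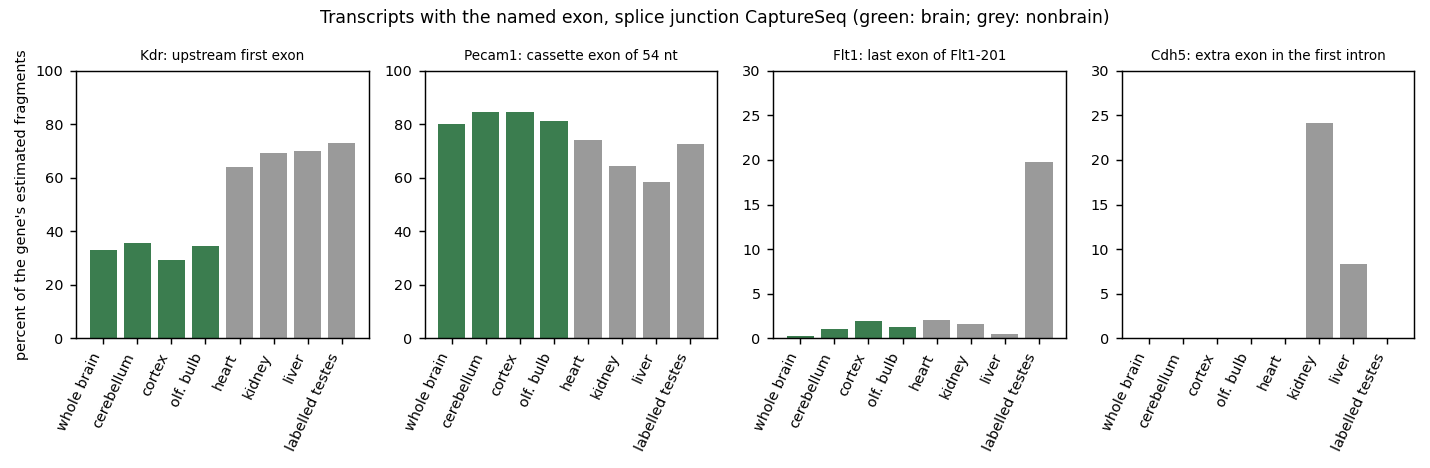
Share of each gene's estimated fragments in transcripts with the named exon, in percent, for the 8 splice junction libraries, brain tissues in green at the left and nonbrain tissues in grey. The upstream first exon of Kdr stays under 36% in brain and above 64% in nonbrain tissues, the short transcript of Flt1 reaches 19.8% in the library labelled testes, and the extra exon of Cdh5 is seen in kidney and liver. The panels of Flt1 and Cdh5 end at 30%.

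Other endothelial genes were counted by lists, in splice junction CaptureSeq and with the same test, for which 21.5% of all features were called higher and 16.2% lower in brain. Of 25 other pan-endothelial genes tested, 6 were lower in brain, a share near that of all features, and none was higher, with a median log2 difference of -1.24 against 0.11 over all features. Plvap, which forms the diaphragms of fenestrated endothelium, had 32.8 to 92.8 normalized fragments in brain and 297 to 1707 in nonbrain tissues (-3.67 ± 0.62, limma adjusted p = 0.00278). Gimap6 (-2.43 ± 0.52) and Cd93 (-2.35 ± 0.65) were the next largest.

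Of 18 organ endothelial genes, 12 were lower in brain and none was higher, with a median of -4.04. The fatty acid transport genes Fabp4 (-9.57 ± 1.06) and Cd36 (-8.03 ± 0.83) and the lipoprotein lipase anchor Gpihbp1 (-9.30 ± 0.71) had the largest differences, with limma adjusted p of 5.21e-05 to 3.61e-04. Gpihbp1 had at most 2.31 normalized fragments in brain tissues and 578 to 3429 in nonbrain tissues. These are markers of capillaries in other organs, and Cd36 and Fabp4 are also used by muscle, fat and macrophages.

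Of 17 blood-brain barrier genes tested, 5 were higher and 2 were lower in brain, with a median of -0.16, and both shares were near those of all features. Slco1c1, a thyroid hormone transporter of brain endothelium, had 1422 to 2192 normalized fragments in brain and 0 to 6.42 in nonbrain tissues (9.19 ± 0.60, limma adjusted p = 2.33e-05). Spock2 (5.95 ± 0.62) and Slc38a5 (4.08 ± 0.90) followed, and Foxq1 (-3.48 ± 0.90) and Lsr (-3.10 ± 0.89), a tricellular junction protein also used by epithelia and liver, were lower. Spock2 is made by neurons as well.

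Of 19 tight and adherens junction genes, 1 was higher and 6 were lower, with a median of -0.40. Cldn11, the claudin of myelin, had 14.2 to 53.8 normalized fragments in brain and was listed at 0 in all nonbrain libraries, and the epithelial claudins Cldn7 (-6.05 ± 1.00) and Cldn4 (-3.61 ± 1.05) and the junction protein F11r (-3.63 ± 0.34) were lower. Of 16 ligands and partners of the receptors, 5 were lower and none was higher, led by the lymphatic VEGF receptor Flt4 (-2.65 ± 0.69), the TGF-beta receptor Tgfbr2 (-2.21 ± 0.33) and its ligand Tgfb1 (-1.97 ± 0.38). Of 5 lymphatic endothelial markers 1 was higher (Reln, which neurons of brain also make) and 2 were lower (Lyve1 and Flt4).

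Few markers of other cells found in or around vessels passed the test. Of 13 pericyte and smooth muscle markers 3 were lower in brain, a share near that of all features, and none was higher, with a summed level of 5667 to 8420.2 normalized fragments in brain and 27096 to 221944 in nonbrain tissues. The highest was heart, where Des, a muscle filament, alone had 98230 normalized fragments. Kidney, liver and the library labelled testes had 1052, 1190 and 928 of Des. Besides Des (-4.89 ± 1.43), Anpep (-4.38 ± 0.72) and Tagln (-3.55 ± 0.64) passed the test. Anpep had 1158 normalized fragments in heart, against 8455, 9158 and 8757 in kidney, liver and the library labelled testes. Of 3 platelet markers tested 1 was lower (Itga2b, -2.12 ± 0.47), with sums of 57.9 to 245 in brain and 373 to 643 in nonbrain tissues, and platelets carry Pecam1 too. Of 9 macrophage and microglia markers 1 was higher (Cx3cr1) and 2 were lower (Ptprc and Adgre1), with sums of 3156 to 10196 in brain and 7163 to 17778 in nonbrain tissues, and none of 5 red blood cell markers passed the test. All markers of these lists found in the files were above 0 in at least 1 splice junction library. Their part in the values of the members was not tested.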

How the data were processed

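Per the study's methods, the authors aligned read pairs to GRCm38 with TopHat2 guided by GENCODE M4. Transcripts were assembled with Cufflinks 2.2.1 and merged by Cuffmerge, and Cuffnorm 2.2.1 made the tables. In these the deposited signal values are estimated fragments of each transcript, scaled by the authors with a factor for each library. Sums over a gene model were whole multiples of a step in all 16 libraries (100% of sums of up to 20 steps, within 0.1 of a step), which gave the fragments, 395430774 in all. Single transcripts held fractions, so no count model was used.

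Transcripts were assigned to GENCODE M21 symbols with BEDTools 2.31.1. Features with a mean of at least 10 were tested with limma 3.58.1 (R 4.3.3) on log2(value + 1) and Benjamini-Hochberg adjustment over all features, with a threshold of 0.05. Fold changes are on this scale and understate changes of low genes. The fits were tested on simulated data. The Cldn5 to Pecam1 ratio was tested by exact permutation over the 70 assignments of tissues. SciPy 1.17.1 gave exact limits at the 95% level, which cover counting error only.

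All members were described in every library. From each other list the 3 called genes with the largest positive and the 3 with the largest negative difference were named. Lists of neuron, oligodendrocyte, organ, germ cell and keratinocyte markers were not treated in this way. For Cldn5 and Pecam1 the 5 genes with the highest correlation were named. Transcripts of members with a share of at least 5% in a splice junction library were counted, and only some of them were described. Some exons in transcripts below that share were described as well. Members and lists were chosen with earlier results of these data known. Alternatives were other pseudocounts, filters, scalings, designs and gene definitions, and leaving out each tissue.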

Additional observations from a re-analysis of the deposited data

Results flagged for a closer look

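In 64 groups of 4 libraries, formed from the values of the members in both designs and from their exon shares in the splice junction libraries, the highest or lowest library stood apart by Dixon's criterion for the gap over the range in 10. Chance gives about 1 group in 20 for independent groups of normally distributed values. The groups here were not independent, since shares of the same gene are linked, as for the acceptors of Eng. The rate is therefore only a rough guide.

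Among values, the library of heart stood apart for Cdh5 in splice junction CaptureSeq (4440.1 normalized fragments). In lncRNA CaptureSeq whole brain stood apart for Pecam1 (25.4), liver for Nostrin (25.7), and the library labelled testes for Tek (9.12) and Eng (23.9). These lncRNA values rest on 8 to 21 fragments each.

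Among shares, the library labelled testes stood apart from heart, kidney and liver for the short transcript of Flt1 (19.8%), the last exon of 4375 nt of Flt1 (0.824%), and the upstream (93.9%) and downstream (3.502%) acceptor of Eng. Cerebellum stood apart from the other brain tissues for the full-length chain of Tek (97.1%).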

How the results depend on the processing

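Of 8 members tested, 2 were called lower in brain, and the count was 2 with a pseudocount of 0.1 or 10, without the filter, after quantile normalization and with gene models as features, and 3 with the mean of both designs. It was 0 per 1000000 fragments outside the spike-in controls, 1 in lncRNA CaptureSeq alone and 5 with a mean-variance trend in limma. Leaving out 1 tissue gave 1 to 6 calls, the most without the library labelled testes. Among all features 6637 were called, and 4541 to 9607 under these alternatives. The difference of Flt1 turned to 0.16 after quantile normalization and 0.46 on the scale of 1000000 fragments, and that of Nostrin to 0.19 on that scale and 0.016 with the mean of both designs. The causes were not tested. The Cldn5 to Pecam1 difference was 2.03 to 2.75 over pseudocounts, designs and the other denominator, and 2.15 to 3.07 with 1 tissue left out. It missed the threshold without a brain tissue (p = 0.0571, exact permutation test) and kept p = 0.0286 without a nonbrain tissue. Between designs 8 or 9 members were called under each alternative. The difference of Cldn5 turned to 2.54 after quantile normalization. The comparison between designs was paired by tissue, and 8 members were called without that replicate block. Brain and nonbrain tissues could not be paired, since the labels number all samples as replicate 1. The 140 and 69 fragments of Cldn5 over all splice junction and lncRNA libraries limit every statement on it, as 24 lncRNA fragments do for Nostrin. Shares of transcripts depend on the authors' estimates.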
